A study of Mus musculus with 4 samples.

Results

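The grainyhead factors Grhl1, Grhl2 and Grhl3 and the zinc-finger repressors Ovol1 and Ovol2 were followed in ureters of a conditional ΔNp63 mutant. So were the epithelial ETS factors Elf3, Elf5 and Ehf and the splicing factors Esrp1 and Esrp2. These 10 genes were chosen as regulators that keep general epithelial identity, and they were found on the arrays as the non-control probes that carry one of the 10 gene names. They had 13 probes among 39429, and all 10 were among the 18170 genes tested. Ureters were dissected from NMRI mouse embryos at E18.5, in late gestation. The mutant, called ΔNp63-cKO or cKO here, carried Pax2-cre/+; Trp63(dN-flox/dN-flox), a Cre that is active in the nephric duct lineage together with 2 floxed copies of the ΔN part of Trp63. The control embryos are listed as Trp63(dN-flox/?), with the second allele unspecified and no Cre named. Both genotypes therefore carried at least 1 floxed allele, and only the cKO is listed with Pax2-cre. Each of 4 two-colour arrays held 1 cKO RNA against 1 control RNA of the same sex, with cKO in the red channel on arrays 1 and 3 and in the green channel on arrays 2 and 4. The pair on array 2 was male and the other 3 pairs were female. The labels do not say whether an RNA came from 1 embryo or from a pool, so the p-values measure the spread between these 4 pairs, which may in part be technical.

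The ureter is a muscular tube lined by the urothelium, a layered epithelium of basal, intermediate and superficial cells. ΔNp63 is the form of p63 made in basal cells of layered epithelia. Grainyhead factors bind promoters and enhancers of junction genes such as Cdh1 and Cldn4 and hold epithelial chromatin open. Ovol factors repress genes of the epithelial-mesenchymal transition, the epithelial ETS factors activate genes of differentiating epithelia, and the Esrp proteins bind RNA and set epithelial splicing of transcripts such as Fgfr2, Cd44, Ctnnd1 and Enah.

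Grhl1, Grhl2 and Ehf were lower in cKO ureters, by 1.84-fold, 2.34-fold and 1.51-fold, in limma's moderated test adjusted over all 18170 genes at a threshold of 0.05. No member was higher. That is 3 of 10 lower, where 5.62% of all genes tested were called lower, and 0 of 10 higher, where 2.92% of all genes were called higher. Without array 1 or without array 4, 1 member passed as lower, which was Grhl2, where 3.21% and 3.05% of all genes did. Without array 1 Elf3 passed as higher, where 1.52% of all genes did. A fit of the separate channels with the array as a replicate block called 7 members lower and 9.53% of all genes, and the same fit with no block called 1 member and 2.41% of all genes. At an unadjusted p under 0.05, limma put 7 of the 10 lower, against 12.8% of all genes, and 0 higher, against 10.8% of all genes. Of the 10, 7 were lower on all 4 arrays, against 16.3% of all genes, and 0 were higher on all 4 arrays, against 14.3% of all genes. The 7 were the 3 grainyhead genes, Elf5, Ehf, Esrp1 and Esrp2, while Ovol1, Ovol2 and Elf3 had ratios on both sides of 0. The median ratio of the 10 genes was -0.47 on the log2 scale, beside 0.00 for all genes tested. In whole ureters, fewer urothelial cells and less RNA per urothelial cell cannot be told apart.

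**Figure D1:**
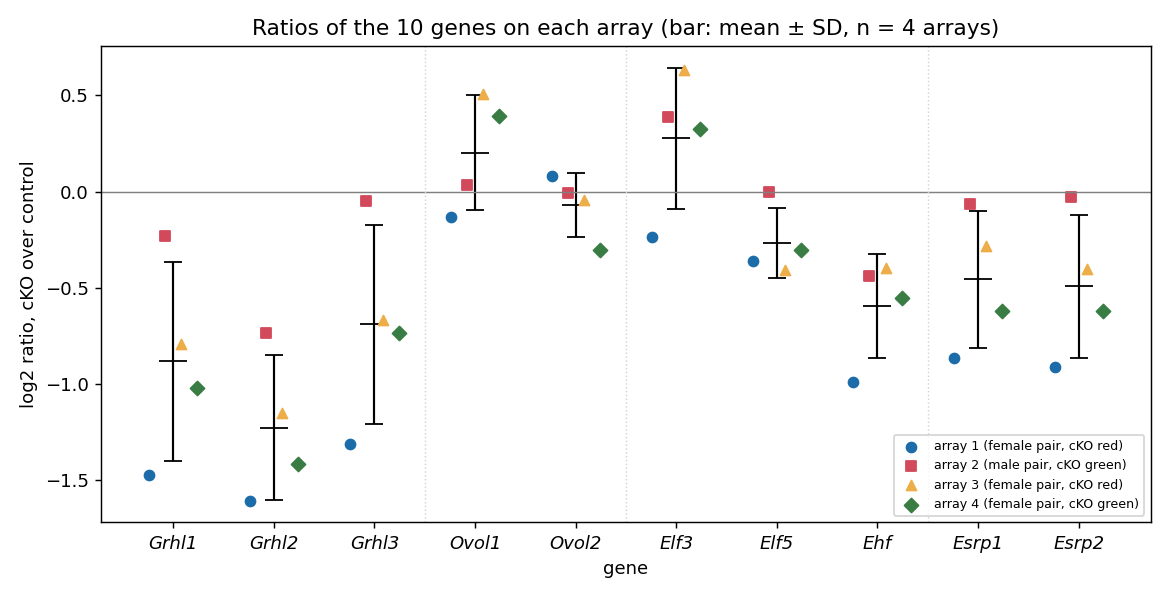
Log2 ratio of cKO over control for each of the 10 genes on each of the 4 arrays, with the bar at the mean and whiskers of 1 SD (n = 4 arrays). Grhl2 lies lowest, between -1.61 and -0.74.

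The arrays gave usable signal for every member. All 13 member probes were well above background in both genotypes on all 4 arrays. Median spot signals were 460.3 to 607.3 in the 2 channels, over background medians of 31 to 82, and no spot was saturated. Array 1 stood apart in having 90.0% of green and 82.6% of red spots well above background, where the other arrays had 75.0% to 76.5% and 72.4% to 72.9%. Correlations of log2 ratios across genes ran between 0.53 and 0.73 for pairs of arrays. Trp63, the targeted gene, had log2 ratios of -2.86, -1.68, -2.03 and -2.13 on arrays 1 to 4 at its brightest probe, a 4.52-fold lower signal in cKO (limma adjusted p = 0.00207). Its other 3 probes gave -1.77, -1.44 and -0.14, of which the last did not pass (limma adjusted p over all probes = 0.290), and the mean of all 4 probes gave -1.38. Of 14 basal urothelial genes, a list that holds Trp63 itself, 12 were lower in cKO, with Trp63 as 1 of the 12, and none passed as higher. Among them, Krt5, a keratin of basal cells, had a ratio of -2.86 ± 0.10 and Krt15 one of -2.55 ± 0.13 (SD, n = 4 arrays).

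Grhl2 was the member with the lowest ratio. Grhl2 is the grainyhead factor best known for activating Cdh1 and Cldn4 and for closure of the mouse neural tube. Normalised log2 intensities were 10.92, 11.65, 11.37 and 11.11 in the cKO RNAs of arrays 1 to 4, against 12.52, 12.39, 12.53 and 12.52 in the control RNAs. Every cKO RNA lay below every control RNA, and the control RNAs were close together while the cKO RNAs were spread. How many of all genes tested had groups that do not overlap was not counted. Groups without overlap, here and below, therefore do not mark out a gene. The ratio was -1.23 ± 0.38 (SD, n = 4 arrays; limma adjusted p = 0.00793), and 0.765% of all genes tested had a lower one.

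Grhl2 had a second, dimmer probe. It lies within the transcript from base 1360, at chr15:37239426-37239485 on the plus strand of mm9, the build the array files use, and its sequence is shown because it gives a reading of Grhl2 that is separate from the brightest probe, which starts at base 4761 of the same transcript.

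Grhl2 second probe: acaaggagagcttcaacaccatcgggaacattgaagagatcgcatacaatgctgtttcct

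Its levels were 7.68, 8.37, 8.17 and 7.91 in cKO RNAs, against 8.88, 8.86, 8.88 and 8.98 in control RNAs. The groups did not overlap here either, and the ratio was -0.87 ± 0.33 (SD, n = 4 arrays; limma adjusted p over all probes = 0.0178). The 0.36 between the ratios of the Grhl2 probes did not pass limma's test for unequal probes of one gene (unadjusted p = 0.128), which called 0.799% of 5509 genes with at least 2 probes.

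Grhl1 encodes a grainyhead factor that activates desmosomal cadherin genes in skin. Its log2 levels were 11.74, 12.85, 12.47 and 12.35 in cKO RNAs, against 13.22, 13.08, 13.27 and 13.37 in control RNAs. All cKO RNAs lay below all control RNAs, with array 2 closest to no change. The ratio was -0.88 ± 0.52 (SD, n = 4 arrays; limma adjusted p = 0.0399). Without array 1 the ratio was -0.71 with an adjusted p of 0.130, and without array 4 it was -0.68 with an adjusted p of 0.102, so the call ended in both cases.

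Grhl3 is required for the epidermal barrier and for terminal differentiation of mouse superficial urothelial cells. It had log2 levels of 14.01, 15.25, 14.75 and 14.74 in cKO RNAs, against 15.33, 15.30, 15.42 and 15.47 in control RNAs. The groups did not overlap, but on array 2 the gap was 0.05. The ratio of -0.69 ± 0.52 did not pass (SD, n = 4 arrays; limma adjusted p = 0.0592). Without array 2 it was -0.86 and passed, with an adjusted p of 0.0452.

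**Figure D2:**
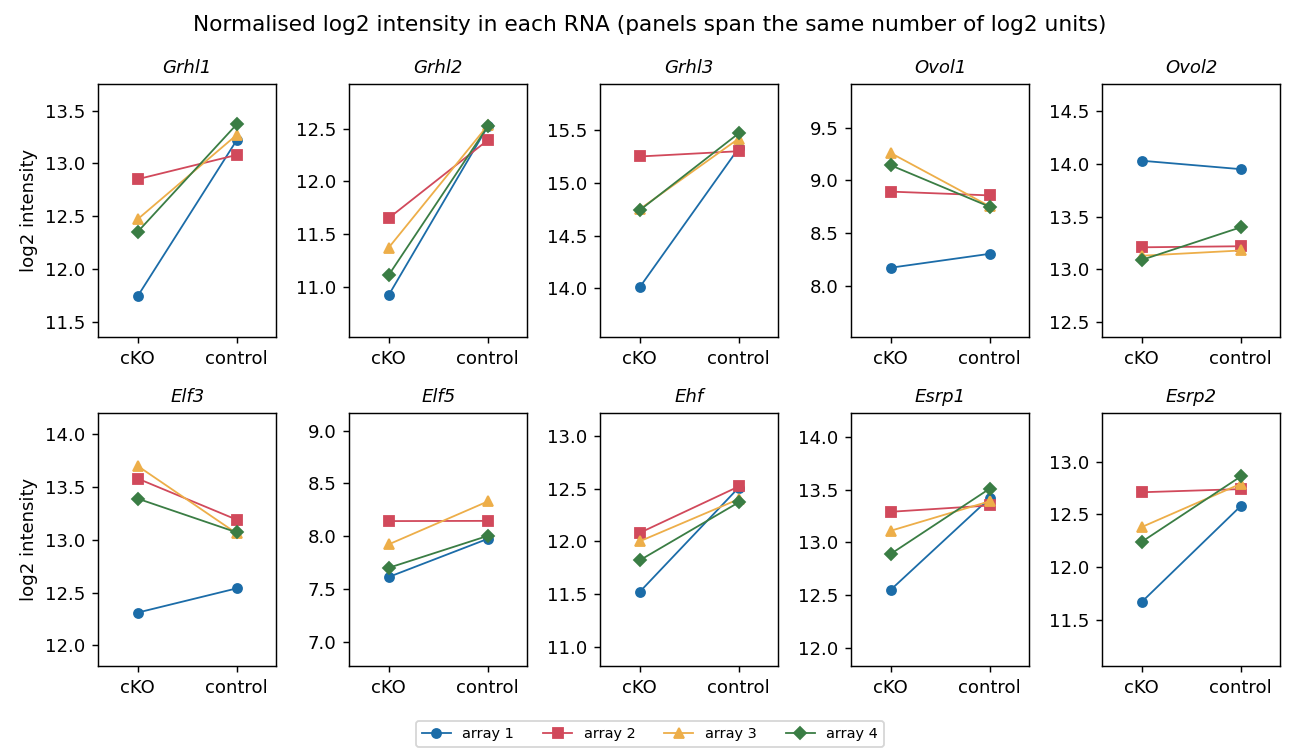
Normalised log2 intensity of each gene's brightest probe in cKO (left) and control (right), with a line for each of the 4 arrays; every panel spans the same number of log2 units, and levels are comparable within a panel only. Lines climb towards the control side on all arrays for the 3 grainyhead genes, Ehf, Esrp1 and Esrp2, and cross in both directions for Ovol1, Ovol2 and Elf3.

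At their brightest probes the 3 grainyhead genes kept one order on every array. Grhl2 had a lower ratio than Grhl1 on all 4 arrays, by 0.35 ± 0.16, and Grhl1 a lower ratio than Grhl3 on all 4 arrays, with a difference of -0.19 ± 0.07 (SD, n = 4 arrays). The difference of Grhl2 from Grhl3 was -0.54 ± 0.19. With 4 arrays the exact two-sided sign-flip test cannot go below p = 0.125, which each of these pairs reached (adjusted p = 0.20 over the 8 within-family pairs compared). The order did not hold at the second, dimmer Grhl2 probe, which had ratios of -1.203, -0.49, -0.71 and -1.06. These were above those of Grhl1 on arrays 1 and 3 and above that of Grhl3 on array 1. The mean of this probe was -0.87 beside -0.88 for Grhl1. With Agilent's processed signals it was -1.065 beside -0.87, so its place beside Grhl1 depended on the processing.

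Promoters of 5 of the 10 genes were found in the RefSeq table for GRCm38.p6, with 7 windows of 300 bases around a gene start among 32851 windows. Grhl2, Ehf, Ovol1, Esrp1 and Esrp2 had no window there and were not searched, though Grhl2 and Ehf were called lower. Grhl1 and Grhl3, which had lower ratios together, and Elf3, which did not, are shown, with the E-box CACCTG in capitals. This E-box is the letter pattern bound by Zeb and Snail repressors. The windows are chr12:24572037-24572336 on the plus strand for Grhl1, the first of its 2 windows, chr4:135573583-135573882 on the minus strand for Grhl3, and chr1:135258423-135258722 on the minus strand for Elf3.

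Grhl1 promoter: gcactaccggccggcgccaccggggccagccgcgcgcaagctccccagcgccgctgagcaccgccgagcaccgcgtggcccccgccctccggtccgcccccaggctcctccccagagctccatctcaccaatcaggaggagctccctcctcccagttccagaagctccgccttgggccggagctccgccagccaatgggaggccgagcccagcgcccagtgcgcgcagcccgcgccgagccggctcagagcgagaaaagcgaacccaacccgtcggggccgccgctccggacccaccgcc

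Grhl3 promoter: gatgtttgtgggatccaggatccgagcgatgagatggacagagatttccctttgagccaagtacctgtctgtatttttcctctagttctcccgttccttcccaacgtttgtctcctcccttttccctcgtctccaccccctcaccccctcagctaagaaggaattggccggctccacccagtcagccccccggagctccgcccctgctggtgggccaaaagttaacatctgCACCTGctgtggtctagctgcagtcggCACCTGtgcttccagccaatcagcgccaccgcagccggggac

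Elf3 promoter: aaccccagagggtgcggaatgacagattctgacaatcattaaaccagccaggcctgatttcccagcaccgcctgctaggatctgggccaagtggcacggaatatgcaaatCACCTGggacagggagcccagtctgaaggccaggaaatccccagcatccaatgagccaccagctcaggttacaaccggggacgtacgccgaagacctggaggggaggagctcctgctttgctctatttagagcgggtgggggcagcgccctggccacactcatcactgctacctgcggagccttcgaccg

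Both strands were searched. The E-box stood in 4 of the 7 windows, those of Elf3, Grhl3 and both Elf5 windows, beside 20.2% of all windows. The grainyhead patterns AACCGGTT (0.146% of all windows) and AACCNGTT (2.09%, which includes the first), the Ovol pattern CCGTTA (2.76%) and the ETS patterns CAGGAAGT (3.33%) and CCGGAAGT (3.89%) had no match in any of the 7. The spaced half-sites of the p53 family core matched in all 7 and in 70.2% of all windows. A match is only a match of letters, and none of these windows was measured for binding.

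Ovol1 and Ovol2 did not pass in either direction. Both encode repressors that keep Zeb1 and related genes low in epithelia. Ovol1 had log2 levels of 8.17, 8.89, 9.26 and 9.14 in cKO RNAs, against 8.31, 8.86, 8.75 and 8.75 in control RNAs. It was higher in cKO on 3 of 4 arrays and lower on array 1, with a ratio of 0.20 ± 0.30 (SD, n = 4 arrays; limma adjusted p = 0.408). Ovol2 had log2 levels of 14.03, 13.21, 13.13 and 13.09 in cKO RNAs, against 13.95, 13.22, 13.18 and 13.40 in control RNAs. The 2 groups overlapped throughout, and both RNAs of array 1 were brighter than those of the other arrays. The Ovol2 ratio was -0.07 ± 0.17 (SD, n = 4 arrays; limma adjusted p = 0.637).

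Ehf, an ETS factor of glandular and surface epithelia, was lower in cKO, with log2 levels of 11.52, 12.08, 12 and 11.82 against 12.51, 12.52, 12.40 and 12.37 in control RNAs. The groups did not overlap. The ratio was -0.59 ± 0.27 (SD, n = 4 arrays; limma adjusted p = 0.0322), but the call ended without array 1, without array 2 and without array 4, with adjusted p-values of 0.0505, 0.0812 and 0.123. Its other probe, from base 628 of the transcript at chr2:103114043-103114102 on the minus strand of mm9, gave -0.57, within 0.02 of the brightest probe.

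Elf3, an ETS factor induced as epithelial cells differentiate, had log2 levels of 12.31, 13.58, 13.70 and 13.39 in cKO RNAs, against 12.54, 13.19, 13.06 and 13.07 in control RNAs. It was higher in cKO on arrays 2 to 4 and lower on array 1. The ratio of 0.28 ± 0.37 did not pass (SD, n = 4 arrays; limma adjusted p = 0.324). Without array 1 it was 0.50 and passed, with an adjusted p of 0.0343. Elf3 had a higher ratio than Ehf on all 4 arrays, by 0.87 ± 0.12 (SD, n = 4 arrays), with the exact sign-flip p again at its smallest value of 0.125 (adjusted p = 0.20).

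Elf5, known from mammary and trophoblast differentiation, was dim. Its log2 levels were 7.61, 8.14, 7.92 and 7.70 in cKO RNAs, against 7.98, 8.15, 8.33 and 8.004 in control RNAs. The groups overlapped across arrays, though each cKO RNA was at or below the control RNA on its own array. The ratio was -0.27 ± 0.18 (SD, n = 4 arrays; limma adjusted p = 0.0819).

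The 2 Esrp genes had like ratios on each array. Esrp1 had log2 levels of 12.55, 13.29, 13.11 and 12.89 in cKO RNAs, against 13.42, 13.35, 13.39 and 13.51 in control RNAs. Esrp2 had 11.67, 12.71, 12.38 and 12.24 in cKO RNAs, against 12.58, 12.74, 12.79 and 12.86 in control RNAs. The groups did not overlap for Esrp1 but overlapped for Esrp2. On array 2 the ratios were -0.06 for Esrp1 and -0.03 for Esrp2, and on array 1 they were -0.86 and -0.91. Neither ratio passed: Esrp1 had -0.46 ± 0.36 (limma adjusted p = 0.116) and Esrp2 had -0.49 ± 0.37 (limma adjusted p = 0.0907; SD, n = 4 arrays each). The paired difference between them was 0.03 ± 0.07 (exact sign-flip p = 0.50), with single arrays between -0.03 and 0.12. The other Esrp1 probe, from base 1916 of the transcript at chr4:11284629-11284688 on the minus strand of mm9, also gave -0.46.

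The median ratio of the 10 genes was -0.89, -0.04, -0.40 and -0.59 on arrays 1 to 4. It was lowest on array 1 and nearest to no change on array 2, the male pair. The median of all genes tested was -0.01, 0.00, -0.02 and 0.02 on the same arrays. A limma fit was given a term for the male pair beside the dye term. That term equals the ratio on array 2 minus the ratio on array 4, the female pair with the same dye order. The female pairs on arrays 1 and 3 do not enter it. Among the members it ran from -0.36 for Ovol1 to 0.79 for Grhl1. That term passed for no member and for 0% of all genes in limma (861 genes at an unadjusted p under 0.05, none of them a member). With 1 male pair, sex and array 2 cannot be told apart.

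The 30 general epithelial genes, such as the adhesion genes Cdh1 and Epcam and the desmosomal gene Dsp, varied over the arrays in the same order. Their median was -0.70, -0.13, -0.27 and -0.50 on arrays 1 to 4. Of the 30, 11 were lower in cKO, 1 was higher and 18 did not pass, with a median of -0.38. Without array 1 or without array 4, 4 of the 30 passed as lower. Dsp had a ratio of -1.24 ± 0.35 and Cdcp1 one of -0.94 ± 0.19, while the polarity gene Pard6b was higher by 0.88 ± 0.31 (SD, n = 4 arrays each; limma adjusted p = 0.00405, 0.00317 and 0.0171). The mean log2 level of the 30 genes was 11.82 to 12.59 in cKO RNAs and 12.43 to 12.68 in control RNAs, and that of the 10 members was 11.45 to 12.17 in cKO RNAs and 12.23 to 12.33 in control RNAs. All of the genes tested in both lists were well above background on all arrays. The part of a smaller epithelial share in the members' ratios was not tested.

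Read against the general epithelial median of the same array, the members lay on both sides. Grhl2 stayed below it on every array, by 0.91, 0.61, 0.88 and 0.92 log2 units on arrays 1 to 4, a difference of -0.83 ± 0.15. Grhl1 was also below it on all 4 arrays, with a difference of -0.48 ± 0.28, and Ehf was below it on all 4 with a difference of -0.20 ± 0.12. Elf3 was above it on all 4 arrays, by 0.68 ± 0.22, as were Ovol1 by 0.60 ± 0.32 and Ovol2 by 0.33 ± 0.30. Grhl3 (-0.29 ± 0.29), Elf5 (0.13 ± 0.20), Esrp1 (-0.06 ± 0.11) and Esrp2 (-0.09 ± 0.14) lay on both sides (SD, n = 4 arrays for each of the 10). The smallest p that the exact two-sided sign-flip test allows is 0.125, reached by the 6 genes with 1 sign on every array (adjusted p = 0.208 over the 10 genes). In limma with every array centred on that median, Grhl2 (adjusted p = 3.72e-05) and Grhl1 (adjusted p = 0.0186) were below it, where 1.89% of all genes were, and Elf3 (adjusted p = 0.00124) and Ovol1 (adjusted p = 0.0045) above it, where 62% of all genes were. Those limma values carry the error of the shared centre in every gene, and the fit then took 1 common spread for all genes, so its p-values are too small. This centring also moved the median of all genes up by 0.40.

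**Figure D3:**
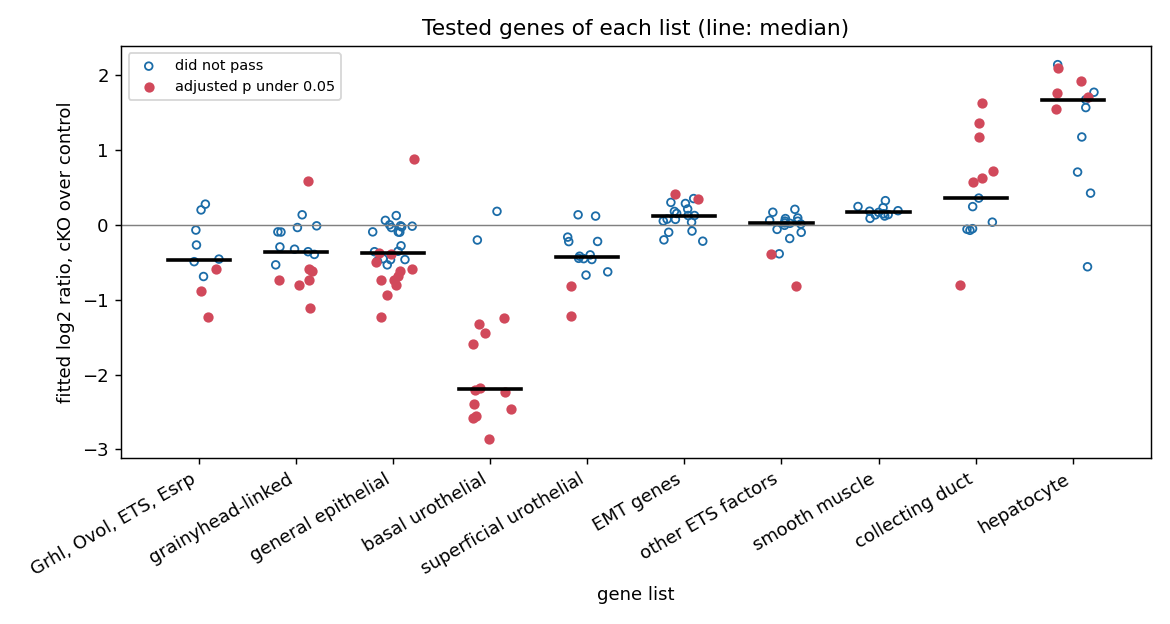
Fitted log2 ratio of cKO over control for each tested gene of 10 gene lists, with filled points for genes at a limma adjusted p under 0.05 and a line at each list's median. The 10 regulators have a median of -0.47, near the general epithelial genes (-0.38) and the superficial and intermediate urothelial genes (-0.43), while the basal genes have a median of -2.19.

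Urothelial genes of the 2 compartments gave 2 different pictures. The 14 tested superficial and intermediate genes had a median of -0.43, and of -0.81, -0.04, -0.28 and -0.52 on arrays 1 to 4, the same order as the regulators. Of these, 2 were lower in cKO (Krt7, a keratin, -1.22 ± 0.35, and Foxa1, a forkhead factor, -0.82 ± 0.36) and 12 did not pass. Without an array in turn, 1 (array 1 or 4), 3 (array 2) and 5 (array 3) of them passed as lower. Their mean log2 level was 14.44 to 15.15 in cKO RNAs and 15.19 to 15.32 in control RNAs. The 14 basal genes had medians of -2.19, -1.85, -2.11 and -2.14 on the arrays, below the ratio of every member on the same array, and a mean log2 level of 10.89 to 11.15 in cKO RNAs and 12.71 to 12.90 in control RNAs.

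Among junction and surface protease genes linked to grainyhead factors, 6 of 17 tested were lower in cKO, 1 was higher and 10 did not pass, with a median of -0.36. Rhov had the lowest adjusted p, with ratios of -1.38, -0.84, -0.87 and -1.35 on arrays 1 to 4 (mean -1.11 ± 0.29, limma adjusted p = 0.00786). Cldn4, a tight-junction claudin, had -0.81 ± 0.25, Epcam had -0.73 ± 0.31 and Cdh1, the epithelial cadherin, had -0.59 ± 0.18 (SD, n = 4 arrays; limma adjusted p = 0.0132, 0.0216 and 0.0179). Spint2 and St14, a protease inhibitor and the membrane protease matriptase, were the other 2 called lower, at -0.61 and -0.74. Tgm5, a transglutaminase, was the gene called higher, at 0.59. Without array 1 or without array 2 no gene of this list passed as higher, and without array 3 there were 2. Between 4 and 5 passed as lower when 1 array was left out. Prss8 (-0.01) and Cldn7 (-0.09) did not pass. Several of these genes are also in the general epithelial list. Among the 6 called lower these are Cldn4, Cdh1, Epcam, Spint2 and St14, so the 2 lists do not give separate results.

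Genes of the epithelial-mesenchymal transition, several of which Ovol and grainyhead factors are known to repress, were mostly not called. Of 18 tested, 2 were higher in cKO, 0 lower and 16 did not pass, with a median of 0.13. Lef1, a factor of Wnt signalling, had a ratio of 0.42 ± 0.15 and Tgfb2, a growth factor, one of 0.35 ± 0.14 (SD, n = 4 arrays; limma adjusted p = 0.0273 and 0.0314). Neither passed without array 1, 3 or 4, and Lef1 alone did without array 2. Zeb1 (0.18, limma adjusted p = 0.111), Zeb2 (0.29, adjusted p = 0.0863) and Snai2 (0.21, adjusted p = 0.115) did not pass, nor did Vim (-0.10, adjusted p = 0.583). Smooth muscle genes had a median of 0.17, mesenchymal genes of 0.13 and endothelial genes of 0.19, with 0 called of 11, 12 and 8. Without array 1 the mesenchymal median was 0.02 and that of the epithelial-mesenchymal transition genes 0.05, and without array 3 they were 0.21 and 0.20. Leaving out 1 array called 1 smooth muscle gene higher (without array 2) and, among mesenchymal genes, 1 higher (without array 3) and 1 lower (without array 4).

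Of 17 other ETS factors, 2 were lower in cKO, 0 higher and 15 did not pass, with a median of 0.02. Etv5, an ETS factor downstream of FGF and Ret signalling, had ratios of -0.71, -0.82, -0.88 and -0.85 on arrays 1 to 4 (mean -0.82 ± 0.07, limma adjusted p = 0.00205). Elf1 had -0.39 ± 0.18 (limma adjusted p = 0.0494) and did not pass when any 1 array was left out, while Etv5 passed each time. Of 3 tested grainyhead and Ovol relatives, Tfcp2l1 was higher in cKO, with 0.50, 0.71, 1.02 and 0.64 on the arrays (mean 0.72 ± 0.22, limma adjusted p = 0.0132), and 2 did not pass. Its second probe gave 0.25, 0.89, 1.195 and 0.14 and did not pass (mean 0.62 ± 0.51, limma adjusted p over all probes = 0.140). Without array 4 Tfcp2l1 did not pass at the first probe either (adjusted p = 0.0506). Tfcp2l1, a grainyhead-like factor, is a regulator of kidney collecting duct. Of 13 collecting duct markers 6 were higher in cKO, 1 lower and 6 did not pass (4 higher and 0 lower without array 4). Tfcp2l1 is itself among the 13 and among the 6 called higher, so this count is not separate from its ratio. The mean log2 level of the 13 was 9.15 to 9.63 in cKO RNAs and 8.83 to 9.14 in control RNAs. None of the 13 was below background, and the part of kidney tissue in the Tfcp2l1 ratio was not tested.

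Some markers of organs near the ureter also passed, while the medians of the proximal tubule and intestinal lists were -0.08 and 0.05. Of 13 hepatocyte markers 5 were higher in cKO, 0 lower and 8 did not pass, with medians of 2.26, 2.66, 1.32 and 0.53 on arrays 1 to 4 and a mean log2 level of 10.65 to 13.61 in cKO RNAs and 9.41 to 11.23 in control RNAs. Without an array in turn, 1 (array 1), 5 (array 2), 0 (array 3) and 10 (array 4) of them passed as higher. Among 9 proximal tubule markers Cubn was higher at 2.27 ± 0.52 (limma adjusted p = 0.00311) and 8 did not pass, of which 5 passed as lower without array 2. Of 7 intestinal markers 2 were higher, 1 lower and 4 did not pass. There were 0 lower when any 1 array was left out and 1 higher without array 2 or 4. Of the 2 called higher, Phgr1 was well above background on 4 arrays in cKO but on only 1 in control. The size of its ratio is therefore uncertain. Of 8 leukocyte markers 0 passed. The part of other tissues in the members' ratios was not tested.

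Transcripts with exons that Esrp proteins are known to regulate were then read probe by probe. Of 14 such genes, 1 was lower in cKO, 0 higher and 13 did not pass, with a median of -0.06. The 1 was Enah, an actin regulator, at -0.31 ± 0.13 (SD, n = 4 arrays; limma adjusted p = 0.0351), and it did not pass when any 1 array was left out. Its 3 probes gave -0.31, -0.30 and -0.36. Fgfr2, whose splicing is the textbook Esrp target, had 0.18 at both of its probes, which overlap each other and so cannot show an exon choice.

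Cd44, a hyaluronan receptor, was the gene of this group whose probes disagreed. It is also a basal marker here, and it was singled out after its values were seen. The probe from base 1965 of its transcript, at chr2:102672645-102672704 on the minus strand of mm9, had log2 levels of 8.14, 7.28, 7.20 and 7.18 in cKO RNAs, against 9.57, 8.90, 9.23 and 9.26 in control RNAs. The groups did not overlap, and the ratio was -1.79 ± 0.32 (SD, n = 4 arrays; limma adjusted p over all probes = 0.00196). The probe from base 1777, at chr2:102677971-102678030, gave -0.60 ± 0.22 (adjusted p over all probes = 0.00516). The probes from bases 2614 and 5494 gave -0.20 ± 0.15 and -0.15 ± 0.17, which did not pass. The sequences of the first pair are shown because these probes read the stretch of Cd44 where the ratios were lowest.

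Cd44 probe from base 1777: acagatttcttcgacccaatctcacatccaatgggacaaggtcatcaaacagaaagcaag

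Cd44 probe from base 1965: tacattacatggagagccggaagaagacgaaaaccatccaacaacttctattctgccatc

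In limma's diffSplice, a test added after these values were seen, the probe from base 1965 lay 1.48 log2 units below the other Cd44 probes (adjusted p over 12617 probes = 9.03e-05; gene-wise adjusted p over 5509 genes = 0.00024). Without array 3 that difference was -1.32 and the call ended, with a gene-wise adjusted p of 0.0501. Without the other arrays in turn it was -1.63 to -1.38 and passed. With Agilent's processed signals the difference was -2.12 and with no background correction -1.61. Both passed, so its size depended on the processing. Esrp1 and Esrp2 themselves did not pass on these arrays. Whether a probe lies in a variable exon was not determined here, since the array gives transcript positions and no exon names.

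**Figure D4:**
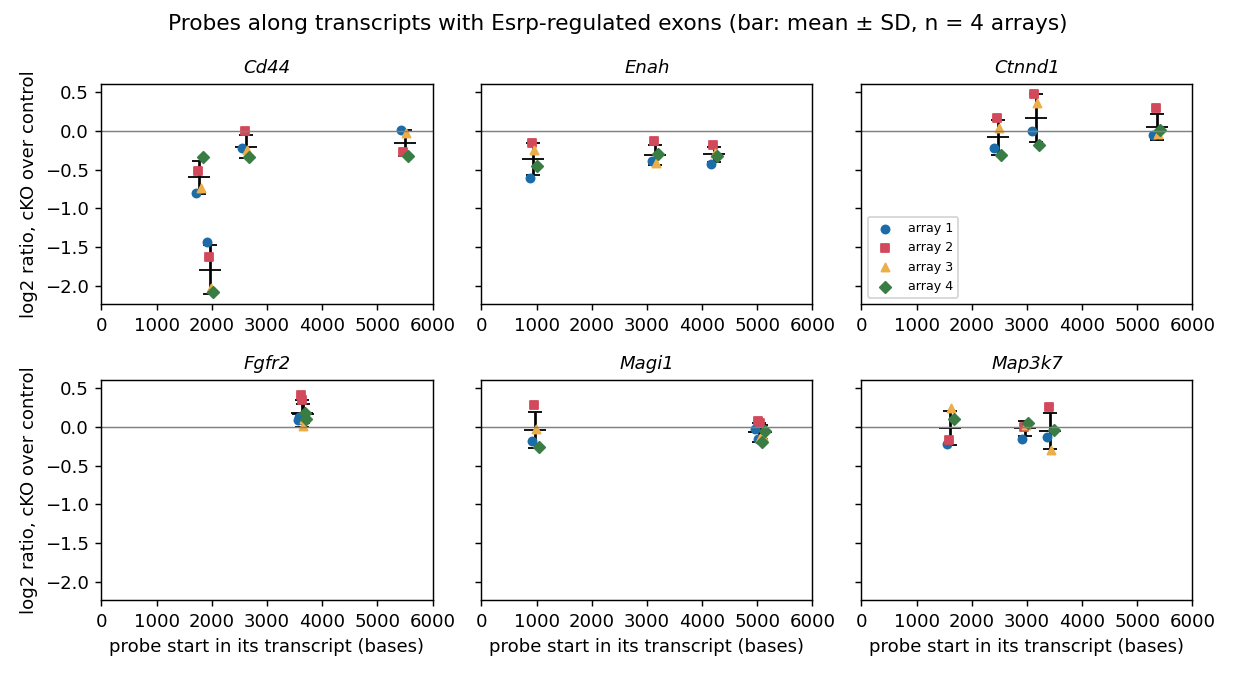
Log2 ratio of cKO over control (vertical axis) by probe start within the transcript in bases (horizontal axis) for 6 genes with Esrp-regulated exons; points are arrays 1 to 4, and bars give the mean and 1 SD. In Cd44 the probe from base 1965 sits at -1.79 and the probes from bases 2614 and 5494 at -0.20 and -0.15, while the probes of Enah lie between -0.36 and -0.30.

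The genes whose 4 ratios lay nearest to those of each called member were found by Euclidean distance over the 4 arrays, among tested genes with a standard symbol. Nearest to Grhl2 were Clu (distance 0.128), Dsp (0.165) and Slc35g1 (0.208). Nearest to Grhl1 were Psca (0.228), Fxyd3 (0.290) and Foxa1 (0.317). Nearest to Ehf were Smim5 (0.132), S100a5 (0.134) and Hoxb2 (0.139). Clu, a secreted chaperone, had ratios of -1.58, -0.70, -1.198 and -1.30 beside -1.61, -0.74, -1.15 and -1.42 for Grhl2. Foxa1 had -1.21, -0.38, -0.71 and -0.98 beside -1.48, -0.23, -0.79 and -1.02 for Grhl1.

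The members' ratios were recomputed under 16 alternative settings each. Grhl2 passed in 16 of 16, with ratios of -1.40 to -0.83 and limma adjusted p-values of 3.72e-05 to 0.0359. The -0.83 and the 3.72e-05 came from centring on the general epithelial genes, a fit whose p-values are too small. That fit is also counted among the passes of Grhl1, Elf3 and Ovol1 below. Grhl1 and Ehf passed in 10 of 16 each. Grhl3 passed in 4, Elf3 in 2, Ovol1, Elf5, Esrp1 and Esrp2 in 1 each, and Ovol2 in 0.

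**Figure D5:**
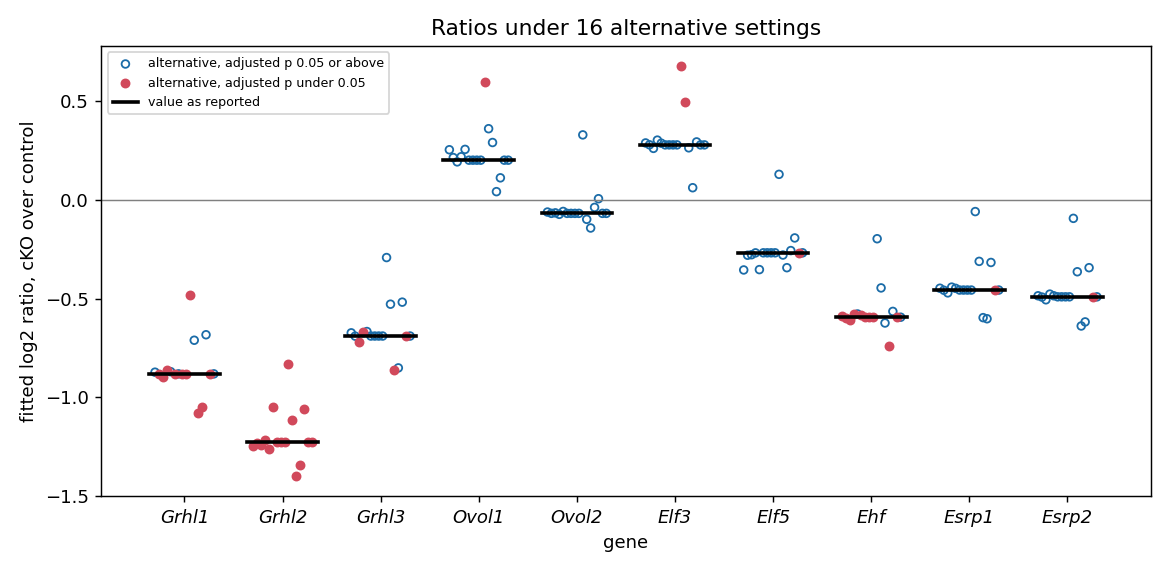
Fitted log2 ratio of cKO over control for each of the 10 genes under 16 alternative settings, filled where the limma adjusted p was under 0.05, with a line at the value given in the text. All 16 Grhl2 points are filled and lie between -1.40 and -0.83, whereas no Ovol2 point is filled. The setting centred on the general epithelial genes, which gave the -0.83, has p-values that are too small.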

How the data were processed

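Total RNA (200 ng per labelling) from E18.5 ureters was amplified, labelled with AlexaFluor555 or AlexaFluor647 and hybridised to 4 two-colour Agilent arrays with 4 spots per probe. The authors deposited scanner files of spot intensity values from Agilent Feature Extraction 10.7.3.1, per the submitters' processing notes. They also deposited a table of log2 ratios with no normalization stated in the labels; its columns have a median of 0 and a slope of 0.990 to 1.00 on the cKO over control ratio of Agilent's processed signals, so it runs in that direction.

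From the mean and background intensities, limma 3.58.1 in R 4.3.3 applied normexp (offset 50) and loess within each array, with control spots at weight 0 and outlier spots (3.04% to 3.58%) left out. Spots of a probe were averaged, and ratios were turned to cKO over control. A gene was tested where the majority of spots of a probe were flagged well above background on each array for cKO, for control or for both, and the brightest such probe was used. The fit had a dye term, with 2 residual and 3.27 prior degrees of freedom, and Benjamini-Hochberg adjustment over 18170 genes. Levels per RNA came from Aquantile after loess. All arrays share 1 slide and scan. The number of arrays limits the precision. Of 39429 probes, RefSeq (GRCm38.p6) gave names to 28328 through an accession, to 3400 through a current symbol and to 241 through an outdated one, 1777 kept the array's name and 5683 had none.

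The fit was tested on simulated data with noise drawn independently for each gene. That test therefore does not cover the shift between arrays that the epithelial genes share. The members and lists were chosen with earlier results of these data known. Genes named beside the members were the members of each list with the smallest p among those called (at most 4), or its 2 brightest where none was called, the targeted gene, and the 3 nearest patterns of each called member. A few more are named as examples that did not pass or to complete a count, as are the Cd44 probes, all chosen after their values were seen. The alternatives covered background correction, normalization, the deposited log2 table, the probe choice, the filter, the dye term, separate channels with and without the array as a block, the centre, and each array left out.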

Additional observations from a re-analysis of the deposited data

How the results depend on the processing

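Grhl2 passed in limma under all 16 alternatives, of which the centring on the general epithelial genes has p-values that are too small. Ratios are log2 cKO over control with limma adjusted p-values. Grhl1 no longer passed with Agilent's processed signals (-0.87, adjusted p = 0.0546), the deposited log2 table (-0.87, adjusted p = 0.102), no filter on dim probes (-0.88, adjusted p = 0.058) or separate channels with no replicate block (-0.88, adjusted p = 0.0776). Ehf no longer passed with the deposited table (-0.58, adjusted p = 0.079), no replicate block (-0.59, adjusted p = 0.0572) or centring on the general epithelial genes (-0.20, adjusted p = 0.271). Grhl3 passed with median centring (-0.72, adjusted p = 0.0367), scaling between arrays (-0.67, adjusted p = 0.048) or separate channels with the array as a replicate block (-0.69, adjusted p = 0.0132). The block, whose pairing is the shared array (intra-spot correlation 0.741), also let Elf5 (-0.27, adjusted p = 0.0312), Esrp1 (-0.46, adjusted p = 0.0306) and Esrp2 (-0.49, adjusted p = 0.0304) pass. Centring on the epithelial genes raised Elf3 to 0.68 and Ovol1 to 0.60, which passed, and turned the sign of Elf5 (0.13), Ovol2 (0.33), Elf1 (0.00477), Enah (0.0905), Fabp2 (0.0600), Csf1r (0.29) and Itgam (0.34).

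Leaving out each array gave -1.08 to -0.68 for Grhl1, -0.86 to -0.52 for Grhl3, -0.74 to -0.45 for Ehf, 0.0612 to 0.495 for Elf3 and -0.143 to 0.00562 for Ovol2. Counts over those 4 fits were 1 to 3 members lower, 0 to 1 higher, 554 to 767 genes lower and 277 to 359 higher, against 3, 0, 1022 and 530 with all arrays; fewer samples enter each fit.

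The deposited table called 1 member lower, and 583 genes lower and 253 higher in all. The replicate block called 7 members lower, and 1731 genes lower and 1238 higher. With no replicate block these were 1, 438 and 120. Centring on the epithelial genes called 2 members higher, and 344 genes lower and 11263 higher. The cause of the other changes was not tested. Without each array in turn, 4 to 10 general epithelial genes and 1 to 5 superficial and intermediate genes passed as lower, and 12 basal genes did so every time.

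Elf5 is dim, at a mean log2 level of 7.85 in cKO and 8.11 in control.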
